A study of Mus musculus with 6 samples.

Results

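The genes examined here encode the orphan and adhesion G-protein-coupled receptors, taken by name as every gene symbol that begins with Gpr or Emr and a digit, together with Cd97, with Gpr34 left out. The rule found 97 of the 35237 genes in the FPKM table and 98 of the 36536 entries in the ALEXA-Seq table, and 96 were in both. Gpr177 was found in the first table alone, and Gpr137b-ps and Gpr144 in the second alone.

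RNA-Seq compared bone marrow-derived monocytes (BMDM) with brainstem microglia (BSM), which were isolated directly from C57BL/6 mice 6 weeks of age with no culture step, and the purpose was to find transcripts that distinguish monocytes entering the brain from resident microglia. BMDM were sorted as CD11b+ CD45high CD115+ Ly6G- cells and BSM as CD11b+ CD45low CD115low Ly6G- cells. These gates read CD11b, CD45 and CD115, the products of Itgam, Ptprc and Csf1r. Each group had 3 libraries, each from cells pooled over several mice. The labels give replicate 1 of each group as male and replicates 2 and 3 as female, whereas the study's text speaks of male mice. Expression was read as FPKM, the fragments of a gene scaled by transcript length and by the mapped fragments of the library, and the ALEXA-Seq signal of the same libraries served as a second reading.

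G-protein-coupled receptors cross the plasma membrane in a bundle of helices and pass an outside signal to heterotrimeric G proteins, which act on adenylyl cyclases, phospholipases and small GTPases, before receptor kinases and arrestins switch them off. An orphan receptor is one with no agreed ligand, and many Gpr symbols were given before a lipid, proton or complement ligand was found. Adhesion receptors carry a long extracellular region that is cut from the membrane part yet stays bound to it, and several of them are surface markers of myeloid cells. Some Gpr symbols belong to proteins of the Golgi or lysosome that are not classical receptors.

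Both groups carried the transcripts that define them. Of 6 monocyte markers, 4 were higher in BMDM, among them Ccr2 and Ly6c2 with FPKM from 13.03 to 165.7 in BMDM and at most 0.408 in BSM. Csf1r, which is on the microglia list too, was higher in BSM, at 101.9 to 158.1 FPKM against 19.1 to 21.3 FPKM in BMDM, although BSM were gated as CD115low. Of the 8 microglia-defining genes 7 were higher in BSM, and the exception was Itgam, listed at 0 FPKM in BSM replicate 2 where its ALEXA-Seq signal was 2435, against 1479 to 2910 in the other libraries. A value of 0 FPKM can thus be a failed estimate. The values of 0 FPKM given below for a receptor in named libraries were 0 in the ALEXA-Seq signal as well. Markers of other cells were also found: the 7 granulocyte markers summed to between 46.0 and 328.7 FPKM in the BMDM libraries, with the highest sum in BMDM replicate 2, and to at most 0.0714 FPKM in BSM. The 6 eosinophil, basophil and mast cell markers reached 71.5 FPKM in that same BMDM library, and of the 6 astrocyte markers Slc1a3 was at 9.51, 5.18 and 6.71 FPKM in BSM, the others were at most 0.144 FPKM, and Gfap and Gjb6 were listed at 0. BSM replicate 1 stood apart, with 24000 genes listed at 0 against 18260 to 20638 in the other libraries. The study lists its RNA with by far the lowest integrity of the 6. By fluorometry its RNA was below detection, as was that of BMDM replicate 2 and BSM replicate 2. BMDM replicate 2 also had the fewest sorted cells and the smallest share of mapped reads of the 6. The part of BSM replicate 1 in the results was tested only by leaving it out. This gave 5 receptor genes toward BMDM and 7 toward BSM, the counts reported below with it. The shares of all tested genes were 50.2% and 11.6% without this library, against 45.3% and 9.22% with it. The FPKM of all genes summed to between 163199 and 194184 in BMDM and between 68288 and 75021 in BSM, and the median log2 fold change of the tested genes was 0.81 toward BMDM. After quantile normalization this median was 0.02, and with every library scaled to the same sum it was -0.23. The receptor calls that change under these scalings are named below, but not every changed call of the other gene lists.

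Of the 97 receptor genes, 18 were listed at 0 in every library, 53 were above 0 but stayed under 1 FPKM, 10 peaked between 1 and 3 FPKM, and 16 reached 3 FPKM in at least 1 library. Only these 16 entered the test, since 3 FPKM in at least 1 library was the minimum. Of them, 5 reached it in BMDM libraries alone, 7 in BSM libraries alone, and 4 in both. Passing through 1 group alone favours a difference, though Gpr89, Gpr107 and Gpr180 passed in this way and still overlapped between the groups. The counts that follow are thus a description of these 16 genes and not of the family.

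Among the 16, 5 (31.2%) were higher in BMDM at an adjusted p-value under 0.05 by limma, where 45.3% of all 6364 tested genes were. In the other direction 7 (43.8%) were higher in BSM, where 9.22% of all tested genes were. The 5 were Cd97, Emr4, Gpr65, Gpr18 and Gpr141, and the 7 were Emr1, Gpr56, Gpr183, Gpr84, Gpr77, Gpr165 and Gpr155. By the simpler measure of overlap, 6 genes were above in every BMDM library and 7 in every BSM library, against 55.2% and 11.6% of all tested genes. With quantile normalization the counts became 4 and 8, against 21.7% and 19.3% of all genes, and with the same sum for every library 4 and 9, against 15.2% and 24.9%. The same 11 of these 12 genes kept their call and direction under each of the 2 scalings, and Gpr18 lost its call under both. The median log2 fold change of the 16 was -0.11. In these pools of sorted cells, fewer cells that carry a transcript and less of it per cell cannot be told apart.

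The FPKM of the 97 genes summed to 157.7, 158.2 and 186.9 in BMDM replicates 1 to 3 and to 89.1, 107.9 and 91.6 in BSM replicates 1 to 3. As a share of all FPKM the order was turned round, with 0.0953% ± 0.0132 in BMDM and 0.136% ± 0.00759 in BSM (SD, n = 3 each). Neither measure overlapped between the groups. A single receptor dominated the BMDM set: Gpr65 made up 48.8% ± 2.72 of the summed FPKM there and 9.43% ± 1.17 in BSM. Cd97 followed with 12.5% ± 1.08 and Gpr141 with 9.83% in BMDM, while both were at or below 0.116% on average in BSM. The BSM set was shared more evenly, with Emr1 at 14.4% ± 4.56, Gpr183 at 14.1% ± 2.08 and Gpr165 at 13.9% ± 5.24. Ranked by mean FPKM, Gpr65 stood above Cd97 in BMDM with no overlap between their libraries, while in BSM no 2 neighbours in the order were separated, from Gpr183 at 13.7 ± 3.55 and Emr1 at 13.7 ± 3.49 down to Gpr107.

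**Figure D1:**
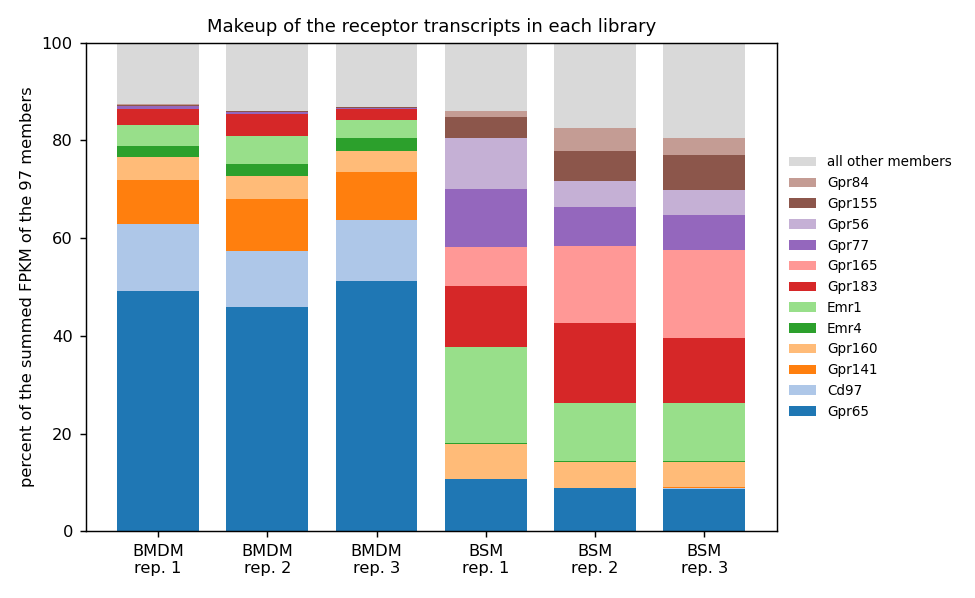
Share of each receptor gene in the summed FPKM of the 97 genes, in percent, with 1 stacked bar for each of the 6 libraries and the genes not listed pooled in grey. Gpr65 fills 48.8% of the BMDM bars on average and 9.43% of the BSM bars, where Emr1, Gpr183 and Gpr165 take similar shares.

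On log2(FPKM + 1), the largest differences among genes with a RefSeq promoter window were those of Gpr141 and Gpr65 toward BMDM and of Gpr165 and Gpr56 toward BSM, so the 250 bases before the start of these 4 genes are shown (with a pseudocount of 0.1 Emr4, at 4.22, exceeds Gpr65, at 3.17), 5′ to 3′ along the gene, from RefSeq on build GRCm38.p6. Capitals mark GAGGAA, the core letters of sites for PU.1, the transcription factor of the myeloid lineage, and TATAAA, the letters of a TATA box, each searched on both strands with no overlap between them. Gpr56 has 2 listed starts, and the first is shown.
Gpr65 (chr12:98268385-98268634, plus strand): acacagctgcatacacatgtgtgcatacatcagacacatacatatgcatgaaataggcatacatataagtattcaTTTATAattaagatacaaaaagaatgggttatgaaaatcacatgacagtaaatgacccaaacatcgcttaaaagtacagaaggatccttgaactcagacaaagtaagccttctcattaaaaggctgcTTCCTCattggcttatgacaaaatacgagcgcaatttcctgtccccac
Gpr141 (chr13:19824258-19824507, minus strand): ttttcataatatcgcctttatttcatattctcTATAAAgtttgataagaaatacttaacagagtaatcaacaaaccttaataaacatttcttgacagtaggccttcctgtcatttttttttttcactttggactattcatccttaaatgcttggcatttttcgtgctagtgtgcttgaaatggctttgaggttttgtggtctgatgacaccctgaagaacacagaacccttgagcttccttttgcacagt
Gpr165 (chrX:96713218-96713467, plus strand): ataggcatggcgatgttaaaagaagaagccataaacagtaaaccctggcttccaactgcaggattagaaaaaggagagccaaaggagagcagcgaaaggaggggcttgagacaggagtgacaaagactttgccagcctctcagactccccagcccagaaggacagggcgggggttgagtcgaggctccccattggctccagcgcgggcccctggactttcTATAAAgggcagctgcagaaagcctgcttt
Gpr56 (chr8:94976859-94977108, plus strand): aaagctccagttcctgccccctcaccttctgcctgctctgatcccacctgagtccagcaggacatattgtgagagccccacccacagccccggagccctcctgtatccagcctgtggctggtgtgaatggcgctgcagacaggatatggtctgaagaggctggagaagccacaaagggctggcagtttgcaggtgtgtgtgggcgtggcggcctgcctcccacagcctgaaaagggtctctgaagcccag
Gpr65 held both motifs, Gpr141 and Gpr165 held TATAAA, and the Gpr56 window held neither. A window was listed for 69 of the 97 genes, though not for Cd97 or Emr1. GAGGAA was in 20 of the 69 (29.0%) and in 23.3% of all 32851 windows, and TATAAA was in 6 of the 69 (8.70%) and in 12.4% of all windows. A gene was counted if any of its windows held the motif, while the share of all windows counts each singly, so the units differ. Among the 14 of the 16 better expressed genes with a window, GAGGAA was found in those of Gpr65 and Gpr77, and TATAAA in those of Gpr65, Gpr141, Gpr165 and Gpr89. Each match describes letters in a short stretch and nothing more.

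The adhesion receptors divided between the cell types. Cd97 (now Adgre5, chr8:86247150-86265225 on mm9), a receptor of circulating leukocytes that binds the complement regulator CD55, was at 21.4, 18.1 and 23.2 FPKM in BMDM replicates 1 to 3 and at 0, 0.138 and 0.201 FPKM in BSM. The groups were far apart, with a log2 fold change of 4.30 ± 0.23 (SE, adjusted p = 7.66e-06 by limma, as are the adjusted p-values that follow). Its exons share 24.7% of their bases with those of the neighbouring Ddx39, and strand was not stated for the counting, so reads in that stretch cannot be told apart. Cd55 itself was between 0.433 and 0.993 FPKM in BMDM and between 0 and 0.421 FPKM in BSM.

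Emr4 (Adgre4, chr17:55889249-55992735), a relative of Cd97 on myeloid cells, was at 3.80, 3.94 and 4.80 FPKM in BMDM and at 0.0696, 0.154 and 0.179 FPKM in BSM. The BMDM mean was 31.1 times that of BSM, with no overlap (log2 fold change 2.19 ± 0.26, adjusted p = 0.000361). Emr1 (Adgre1, chr17:57498114-57628671), which encodes the macrophage antigen F4/80, was found in both cell types, at 6.64, 8.77 and 7.15 FPKM in BMDM and at 17.5, 12.8 and 10.7 FPKM in BSM. All BSM libraries lay above all BMDM libraries, but the difference was small and close to the threshold (log2 fold change -0.77 ± 0.26, adjusted p = 0.0362). Without BMDM replicate 1, BMDM replicate 3 or BSM replicate 2 the adjusted p-value of Emr1 was 0.102, 0.114 or 0.0794, so the call depended on each of these libraries. It was also lost with no FPKM minimum (adjusted p = 0.0653). After quantile normalization the difference was larger, -1.51 with an adjusted p of 0.00142.

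Gpr56 (Adgrg1, chr8:97508271-97538101), a receptor of neural progenitors and lymphocytes that binds collagen III and transglutaminase 2, was at 0.0242, 0.0312 and 0.0290 FPKM in BMDM and at 9.32, 5.67 and 4.57 FPKM in BSM. The BSM mean was 232 times the BMDM mean, and no library came near the other group (log2 fold change -2.82 ± 0.30, adjusted p = 0.000228). Of its ligands, Col3a1 was at or below 0.00681 FPKM in every library. Tgm2 was at 9.64 FPKM in BSM replicate 1, against 1.02 and 0.698 FPKM in the other BSM libraries and at most 0.342 FPKM in BMDM (log2 fold change -1.56, adjusted p = 0.0808). The tetraspanin Cd81, which is known to form complexes with Gpr56, was at 118.9, 138.1 and 111.6 FPKM in BSM and at 0.393, 10.2 and 1.61 FPKM in BMDM (log2 fold change -5.17, adjusted p = 0.000575). Its partner Cd9 was higher in BSM as well (-2.86, adjusted p = 0.00014).

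Of the other 16 adhesion receptors in the FPKM table, 1 peaked between 1 and 3 FPKM, 13 were above 0 and under 1, and 2 were listed at 0. The first was Gpr97 (Adgrg3), known from granulocytes, at 0.280, 1.73 and 0.424 FPKM in BMDM and listed at 0 in all BSM libraries. Its highest value was in BMDM replicate 2, where the granulocyte markers were highest too. Mpo was at 32.7, 181.0 and 67.1 FPKM over the 3 BMDM libraries. Whether granulocytes were in these pools, and whether they had a part in the Gpr97 level, was not tested. Gpr126 at 0.743, 0.796 and 0.951 FPKM and Gpr128 at 0.589, 0.167 and 0.485 FPKM in BMDM were both listed at 0 in every BSM library, in both tables. They are named after their values were seen.

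**Figure D2:**
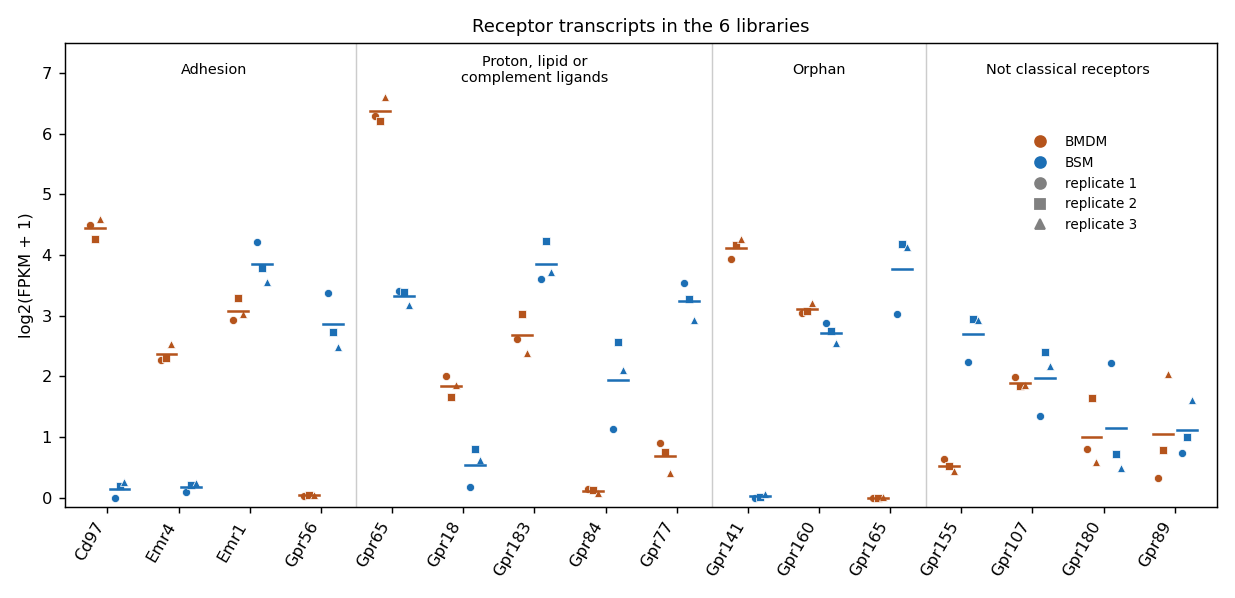
log2(FPKM + 1) of the 16 receptor genes that reached 3 FPKM, grouped by role, with 1 point per library, shapes for the replicate and a line at the mean of each group of 3. Cd97, Emr4, Gpr65, Gpr18, Gpr141 and Gpr160 lie higher in every BMDM library than in any BSM library, 7 genes lie the other way, and Gpr107, Gpr180 and Gpr89 overlap.

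Among receptors for protons, lipids and complement, Gpr65 (chr12:99506845-99514834), which senses extracellular protons and raises cyclic AMP, was the most abundant of all 97 genes in BMDM. It was at 77.7, 72.6 and 95.9 FPKM there and at 9.61, 9.48 and 8.00 FPKM in BSM. The BMDM mean was 9.09 times the BSM mean (log2 fold change 3.04 ± 0.22, adjusted p = 3.38e-05), and its BSM level gave it place 4 in the order of that group. Annotated antisense transcript Gm47566 shares 24.7% of its exon bases. The related proton sensor Gpr4, named after its values were seen, was at or below 0.621 FPKM in every library. Gpr132, a receptor of the same small group, was at 0.813, 1.84 and 0.911 FPKM in BMDM and listed at 0 in all BSM libraries, and its highest value was in BMDM replicate 2, the library with the most granulocyte marker FPKM, whose part in it was not tested.

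Gpr183 (chr14:122351854-122364326), which guides immune cells along gradients of oxysterols, was at 5.14, 7.12 and 4.23 FPKM in BMDM and at 11.1, 17.8 and 12.2 FPKM in BSM. The BSM mean was 2.49 times higher with no overlap (log2 fold change -1.18 ± 0.28, adjusted p = 0.00933). The enzymes that make its ligand, Ch25h and Cyp7b1, were at or below 0.0189 FPKM in every library, and Hsd3b7, which degrades it, was between 0.623 and 1.97 FPKM with overlap between the groups. Gpr18 (chr14:122310657-122315067), for which lipid ligands have been proposed, was at 3.03, 2.17 and 2.61 FPKM in BMDM and at 0.124, 0.744 and 0.541 FPKM in BSM. Its groups did not overlap (log2 fold change 1.31 ± 0.30, adjusted p = 0.00762). After quantile normalization the change fell to 0.39 with an adjusted p of 0.276, and with the same sum it was 0.69 with an adjusted p of 0.133, so the Gpr18 call rested on the scaling.

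Gpr84 (chr15:103138670-103140878), a receptor for medium-chain fatty acids, was at 0.106, 0.0929 and 0.0526 FPKM in BMDM and at 1.20, 4.95 and 3.31 FPKM in BSM. It was higher in every BSM library, though these differed by several-fold among themselves (log2 fold change -1.82 ± 0.41, adjusted p = 0.00693). The antisense gene Gm49482 covers 39.5% of its exon bases. Gpr77 (C5ar2, chr7:16820101-16827667), the second receptor of the complement fragment C5a, which does not signal through G proteins, was at 0.857, 0.693 and 0.331 FPKM in BMDM and at 10.6, 8.65 and 6.61 FPKM in BSM. The BSM mean was 13.8 times the BMDM mean (log2 fold change -2.56 ± 0.27, adjusted p = 0.000207). Complement C3 was between 43.4 and 60.7 FPKM in BMDM and at or below 0.0396 FPKM in BSM (5.71, adjusted p = 2.91e-06). C3 is not the precursor of C5a, and no value for C5 is given here.

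The 3 better expressed receptors with no agreed ligand showed 3 patterns. Gpr141 (chr13:19841551-19916126) was at 14.3, 16.9 and 18.1 FPKM in BMDM and at 0, 0.0100 and 0.0416 FPKM in BSM, so that it was next to absent from the BSM values (log2 fold change 4.10 ± 0.22, adjusted p = 8.70e-06). Gpr165 (chrX:93908780-93914727) was its mirror image, listed at 0 in BMDM replicates 1 and 2, at 0.00393 FPKM in BMDM replicate 3 and at 7.16, 17.05 and 16.5 FPKM in BSM (log2 fold change -3.77 ± 0.34, adjusted p = 0.000102). Gpr160 (chr3:30754872-30796112) was found in both, at 7.22, 7.47 and 8.25 FPKM in BMDM and at 6.36, 5.68 and 4.82 FPKM in BSM. The groups did not overlap, but the log2 fold change of 0.39 had a 95% interval from -0.12 to 0.90 (adjusted p = 0.165), below the median of all tested genes. The sign of Gpr160 turned to -0.34 after quantile normalization (adjusted p = 0.217) and to -0.76 with the same sum (adjusted p = 0.0297).

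Of the genes named as receptors that encode proteins of inner membranes, 1 differed. Gpr155 (chr2:73179563-73224629), a lysosomal protein that takes part in cholesterol sensing, was at 0.548, 0.429 and 0.357 FPKM in BMDM and at 3.72, 6.71 and 6.58 FPKM in BSM. The BSM libraries were all above the BMDM libraries, by 12.8 times on average (log2 fold change -2.17 ± 0.29, adjusted p = 0.000604). Gpr107 (chr2:31007836-31072069), a Golgi protein, was at 2.96, 2.59 and 2.63 FPKM in BMDM and at 1.54, 4.25 and 3.49 FPKM in BSM. Its groups overlapped, and the interval of the log2 fold change ran from -0.80 to 0.66 (adjusted p = 0.856). After quantile normalization Gpr107 was called higher in BSM (-0.96, adjusted p = 0.0209), as it was with the same sum (-1.05, adjusted p = 0.0444).

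Gpr180 (chr14:118536380-118563454) was at 0.734, 2.11 and 0.495 FPKM in BMDM and at 3.68, 0.652 and 0.402 FPKM in BSM, so a single library set each group's highest value. The 95% interval of its log2 fold change ran from -1.36 to 1.07 (adjusted p = 0.836). Gpr89 (chr3:96672204-96709269), which encodes a Golgi pH regulator, was at 0.255, 0.725 and 3.10 FPKM in BMDM and at 0.660, 1.00 and 2.07 FPKM in BSM. Both groups spread widely and overlapped, with an interval from -1.20 to 1.07 (adjusted p = 0.915), and 27.9% of its exon bases are shared, mainly with Pdzk1. The ALEXA-Seq signal of Gpr89 spread less, at 8.38, 14.4 and 11.3 in BMDM and 8.89, 7.12 and 9.62 in BSM. In that reading Gpr89 was not among the tested entries.

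**Figure D3:**
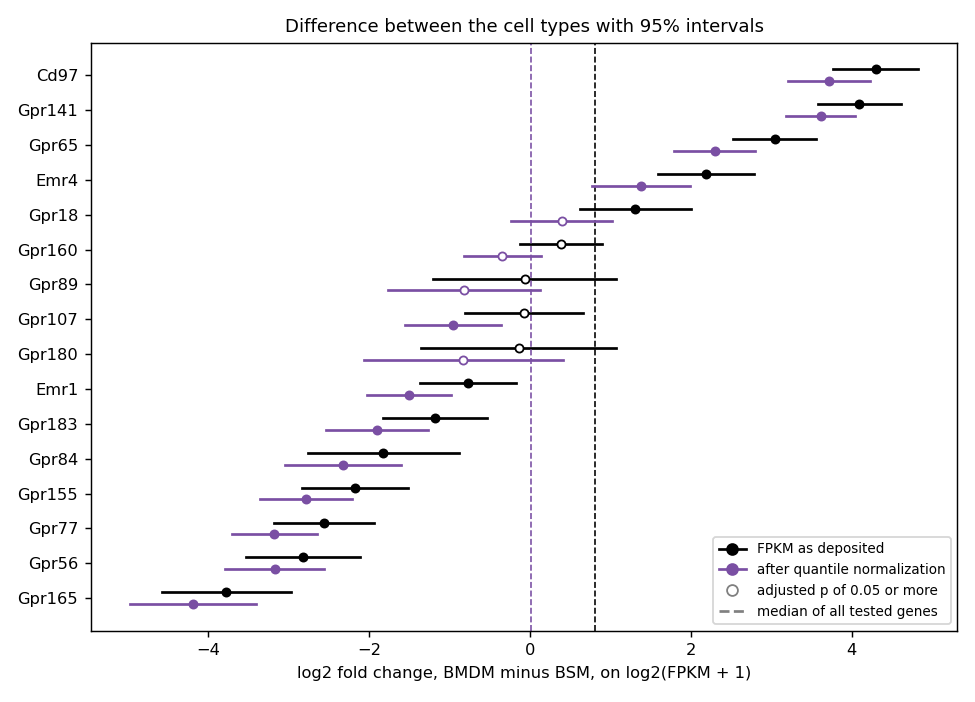
log2 fold change of the 16 receptor genes, BMDM minus BSM on log2(FPKM + 1), with 95% intervals from limma, from FPKM as deposited in black and after quantile normalization in purple. Open circles have an adjusted p of 0.05 or more, and dashed lines mark the median of all tested genes at 0.81 and 0.02. Gpr18 loses and Gpr107 gains a call, and Gpr160 changes sign.

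The 10 genes between 1 and 3 FPKM were too low for the main test but entered when the minimum was set to 1 FPKM. Of 26 receptor genes in that fit, 8 passed the test toward BMDM and 8 toward BSM, as did 37.2% and 7.66% of 9637 genes. With no minimum, 10 of 79 passed toward BMDM and 7 toward BSM, against 14.9% and 3.36% of 21167 genes. The additions toward BMDM were Gpr108 (1.02, adjusted p = 0.0108), Gpr132 (1.10, adjusted p = 0.00769) and Gpr171 (0.87, adjusted p = 0.0195), and toward BSM Gpr157 (-0.97, adjusted p = 0.00764). Gpr108, a relative of the Golgi protein Gpr107, ranged from 1.71 to 2.22 FPKM in BMDM and from 0.134 to 0.660 FPKM in BSM. Gpr171 ranged from 0.437 to 1.34 FPKM in BMDM and was listed at 0 in all BSM libraries. For Gpr157 the ranges were 0.0894 to 0.268 FPKM in BMDM and 1.03 to 1.55 FPKM in BSM.

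The rest of this tier passed no test. Gpr97 had a log2 fold change of 0.77 (adjusted p = 0.0726). Gpr177, which is the Wnt carrier Wls, ranged from 1.89 to 2.68 FPKM in BMDM and from 0.477 to 2.22 FPKM in BSM. The values of Gpr146 ran from 0.794 to 1.16 FPKM in BMDM and from 1.12 to 1.86 FPKM in BSM, and those of Gpr22 from 0.445 to 0.595 FPKM and from 0.00412 to 1.20 FPKM. Gpr137, whose exons share 15.4% of their bases with Bad, ranged from 0.0127 to 0.739 FPKM in BMDM and from 0.748 to 1.47 FPKM in BSM. Gpr137b ranged from 0.113 to 0.317 FPKM and from 0.334 to 1.39 FPKM, and 62.6% of its transcript has a near-identical copy in Gpr137b-ps, so its level is uncertain.

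In the ALEXA-Seq signal, 17 receptor genes were among the 6364 entries tested, and 6 were higher in BMDM and 8 in BSM, where 37.1% and 10.9% of all entries were. With no minimum these counts were 12 and 7 of 80, against 10.5% and 3.83% of 22980 entries. All 12 genes called from FPKM were called in the same direction, although both tables come from the same libraries and are no separate evidence. The other 2 calls were Gpr108 toward BMDM (1.97, adjusted p = 0.0227) and Gpr157 toward BSM (-2.85, adjusted p = 0.00581). Gpr160 again did not differ beyond its error (0.23, adjusted p = 0.508). Gpr182 was the clearest disagreement, at most 0.0469 FPKM yet with signals of 12.7, 38.0 and 9.90 in BMDM and 2.71, 36.6 and 18.7 in BSM, and it was named after its values were seen. The tables differed on whether Gpr119, Gpr20 and Gpr39 were above 0, and each was at or below 0.157 in either table.

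Several of these genes lie side by side, and 3 such pairs had opposite patterns. Within 200 kb of each other there were 8 pairs of the 97 genes. Gpr56 and Gpr97 are 3.52 kb apart on chromosome 8, and Gpr56 had mean FPKM of 0.0281 in BMDM and 6.52 in BSM while Gpr97 had 0.812 in BMDM and was listed at 0 in BSM. Gpr18 and Gpr183, which both sit within an intron of Ubac2 on chromosome 14 with 36.8 kb between them, were higher in opposite cell types. On chromosome 17, Gpr108 had means of 1.93 and 0.462 FPKM and Emr1, 111.0 kb away, 7.52 and 13.7 FPKM in BMDM and BSM.

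**Figure D4:**
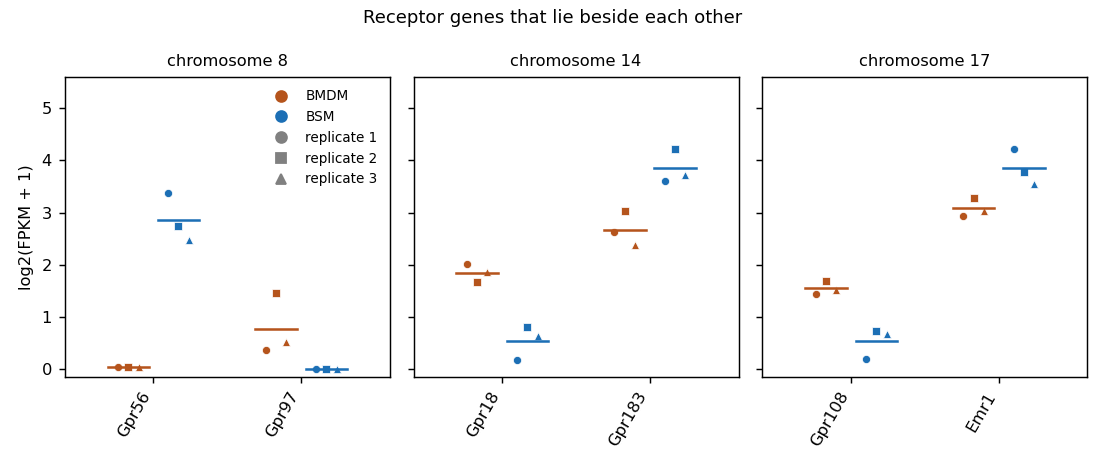
log2(FPKM + 1) of neighbouring receptor genes in the 6 libraries, 1 panel per chromosome, with points for libraries and lines for the mean of each group of 3. Gpr56 lies higher in BSM beside Gpr97 with 0 in BSM, and Gpr18 and Gpr183, as well as Gpr108 and Emr1, lie higher in opposite groups.

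The proteins that carry or end the receptors' signals were taken as a list of 50 genes, of which 19 passed the minimum, and 8 were higher in BMDM (42.1%) and 1 in BSM (5.26%), against 45.3% and 9.22% of all tested genes. These shares lay near the background. Among 7 tested alpha subunits, 3 were higher in BMDM. Gnai2, which inhibits adenylyl cyclase, was at 29.5, 45.0 and 38.9 FPKM in BMDM and at 10.8, 9.30 and 7.15 FPKM in BSM (log2 fold change 1.94, adjusted p = 0.000695). The others were Gnai3 (1.97, adjusted p = 0.00221) and Gnas, the stimulatory subunit (1.60, adjusted p = 0.00209). Of 6 beta and gamma subunits, Gng12 alone was called (1.20, adjusted p = 0.0168), a call lost after quantile normalization (adjusted p = 0.214) and with equal sums (adjusted p = 0.804). Gngt2 was at 45.7 to 68.2 FPKM in BMDM and 54.0 to 102.0 FPKM in BSM (-0.63, adjusted p = 0.124), and it was called toward BSM after quantile normalization (adjusted p = 0.0122) and with equal sums (adjusted p = 0.00336). Adcy7, the single adenylyl cyclase tested, gave 0.36 (adjusted p = 0.256).

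The 5 receptor kinases and arrestins tested were all called from FPKM as deposited, 4 toward BMDM and 1 toward BSM, against 45.3% and 9.22% of all genes, but after quantile normalization 1 was called in each direction. Grk5 was at 3.40, 4.83 and 3.70 FPKM in BMDM and at 0.00622, 0.190 and 0.147 FPKM in BSM (2.15, adjusted p = 0.000519). Adrbk2 (0.93, adjusted p = 0.0129) and Adrbk1 (0.84, adjusted p = 0.0493) were also higher in BMDM as deposited, but their adjusted p-values were 0.882 and 0.773 after quantile normalization and 0.750 and 0.803 with equal sums. The arrestin Arrb2 was at 4.07, 6.20 and 4.46 FPKM in BMDM and at 11.4, 8.90 and 8.10 FPKM in BSM (-0.83, adjusted p = 0.0249). With quantile normalization the 50 genes gave 4 calls toward BMDM and 5 toward BSM, against 21.7% and 19.3% of all genes, and with equal sums 2 and 4, against 15.2% and 24.9%. The balance of this list thus depended on scaling. Gnai2, Grk5 and Arrb2 were called under all 3 scalings, while Gnai3 (adjusted p = 0.111) and Gnas (adjusted p = 0.347) lost their call with equal sums. Of 10 adhesion receptors with other symbols, Eltd1 alone was tested and was higher in BMDM (1.94, adjusted p = 0.00593), and its highest value, 5.16 FPKM, was again in BMDM replicate 2.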

How the data were processed

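The authors aligned paired-end reads to mm9 and deposited FPKM for each gene. The submitters' processing notes name CASAVA 1.7.0, TopHat 1.3.1, Bowtie 0.12.7 and Cufflinks 1.0.3. The authors also deposited an ALEXA-Seq expression signal per gene, whose scaling is not given in the sources used here. The study gives mapped reads for each library, but neither table holds reads per gene, so how many reads a gene's value rests on is unknown. Starts in the FPKM table were read as counted from 0, since 7542 of 17788 spans then had the length of the gene of that symbol in GENCODE M21, against 266 from 1.

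BMDM and BSM were compared with limma 3.58.1 in R 4.3.3 on log2(FPKM + 1) for the 6364 genes with at least 3 FPKM in 1 library, and on the 6364 highest ALEXA-Seq entries, with Benjamini-Hochberg adjustment over all of them and a threshold of 0.05. Folds on log2(FPKM + 1) understate changes of low genes. Simulated data served to test the limma code. Exon overlaps and copies (blastn 2.17.0, at least 95% identity over 100 bases) came from GENCODE M21. Genes that reached 3 FPKM are named with all values, those from 1 to 3 with ranges, and of each other list at most 4 tested genes with the largest changes, besides ligands, or enzymes of ligands, of a named receptor. The members and lists were chosen with earlier results of these data known. Alternatives were a pseudocount of 0.1, a minimum of 1 FPKM or none, quantile normalization, equal sums, no variance trend, a replicate block, and leaving out each library. The labels call the libraries biological replicates. A few genes are not reported here.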

Additional observations from a re-analysis of the deposited data

How the results depend on the processing

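Of the receptor counts, the one toward BMDM moved by more than 1.5 times, from 5 to 8 with a minimum of 1 FPKM and to 10 with none, where 79 instead of 16 receptor genes were tested, and from 6 to 12 in the ALEXA-Seq signal with no minimum. The signalling count toward BMDM was 8, and 4 after quantile normalization, 2 with equal sums and 5 to 10 when 1 library was left out. Toward BSM it was 1, and 2 with a minimum of 1 FPKM or none, 5 after quantile normalization, 4 with equal sums and 0 to 2 with 1 library left out. With 1 library left out, 32.0% to 50.2% of all tested genes were called toward BMDM and 7.24% to 11.6% toward BSM. The count of 5 came without BMDM replicate 2, BMDM replicate 3 or BSM replicate 3, and the last of these gave the 2 toward BSM. The count of 0 came without BMDM replicate 1, BMDM replicate 3 or BSM replicate 2, and the cause was not tested.

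Changes of sign were seen for 4 genes with no call. Gpr160 turned to -0.34 after quantile normalization and -0.76 with equal sums. Leaving out 1 library gave Gpr107 values from -0.38 to 0.14, above 0 without BSM replicate 2 (0.14) or BSM replicate 3 (0.03). Gpr180 ran from -0.47 to 0.40, above 0 without BMDM replicate 3 (0.07) or BSM replicate 1 (0.40). Gpr89 ran from -0.56 to 0.29, above 0 without BMDM replicate 1 (0.29), BMDM replicate 2 (0.06) or BSM replicate 3 (0.18). Of the other values for the 16 genes, 190 kept direction and side of the threshold.

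Same-numbered libraries deviated together little, with correlations of -0.02, -0.01 and 0.13 in FPKM and 0.02, 0.04 and 0.10 in the ALEXA-Seq signal. In each reading the last of these was the highest among all pairs of a BMDM and a BSM library. So few values cannot decide whether the numbers pair the libraries, and by the labels the numbers go with sex in both groups. With the replicate number as a block, 5 receptor genes were called toward BMDM and 6 toward BSM, against 45.6% and 8.89% of all genes, and Emr1 was lost (adjusted p = 0.0577). With 3 libraries a group and no reads per gene, low genes are the least certain.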

Other observations

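A few genes of the lists used here were high in BSM replicate 1 alone, and they were picked after their values were seen. Gnai1, an inhibitory alpha subunit, was at 3.36 FPKM in that library and at or below 0.0103 FPKM in the other 5. Gna11 was at 7.67 FPKM there, against 0.612 and 0.758 FPKM in the other BSM libraries and at most 1.54 FPKM in BMDM. Tgm2 at 9.64 FPKM and Gpr180 at 3.68 FPKM followed the same course, and the ALEXA-Seq signal of Gpr180 was 87.7 in that library against 13.1 and 7.73 in the other BSM libraries. Gpr137 had an ALEXA-Seq signal of 32.8 there against 2.68 and 2.17. This library also had the most genes listed at 0, 24000, and by the study's own record the RNA of lowest integrity, and the part of either in these values was not tested.

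Some scarce receptors had a higher mean in BSM than in BMDM, and they were picked after their values were seen. Other scarce receptors went the other way, such as Gpr126 and Gpr128 above. Gpr4, a proton sensor, was listed at 0 in BSM replicate 1 and at 0.621 and 0.342 FPKM in replicates 2 and 3. In BMDM it was at 0, 0.0281 and 0.0939 FPKM, so its groups overlapped. Gpr125, an adhesion receptor, was at 0.132, 0.557 and 0.253 FPKM in BSM and at most 0.0294 FPKM in BMDM. Lphn2, a latrophilin, stayed below the minimum of 3 FPKM but was at 2.82, 2.59 and 2.17 FPKM in BSM against 0.224, 0.155 and 0.389 FPKM in BMDM.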
